A study of Avicennia officinalis with 4 samples.

Results

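Avicennia officinalis is a mangrove tree whose roots take up water from saline mud while excluding most of the salt. The 6 unigenes described here carry the names of a salt-signaling kinase (SOS2), a pair of MAP kinases (MAPK8 and MMK1), a pair of ion transporters (SKOR and CAX2) and a subunit of the COP9 signalosome (CSN4). All 6 were taken by name from the study's list of salt tolerance genes and its network around the auxin response factor ARF25, out of 168308 unigenes in the assembly. A unigene is a transcript sequence put together from the reads alone, without a genome. The names come from the study, since the deposited table holds neither names nor sequences. For its list, the study aligned genes that differed with salt to sequences from published salt-treatment data on roots of rice, Arabidopsis and Bruguiera. The genes that entered this alignment and the network were chosen on the contrast of salt-treated with control roots in the same 4 libraries. The values of the 6 unigenes in that contrast are therefore a description. No p-value of it is given for them, and the intervals and standard errors printed show the precision of the values and are no support for the choice.

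Salt-treated plants were greenhouse seedlings 2 months old that received 500 mM NaCl in dilute Hoagland's nutrient solution for 24 h. Control plants were seedlings of the same age without NaCl. All seedlings were raised from propagules of wild mangroves in a salt-free potting mixture and moved to sand before the experiment. There were 2 salt-treated and 2 control libraries, each of mRNA from the roots of 3 plants, so that 1 value stands for 3 pooled root systems.

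SOS2 is a protein kinase of the salt overly sensitive pathway of Arabidopsis. The calcium sensor SOS3 binds and activates it, and the kinase then switches on SOS1, an antiporter that moves sodium out of the cell in exchange for protons. MAP kinases are the last kinases of a relay in which each kinase phosphorylates the next, and MMK1 was named in alfalfa. SKOR is an outward potassium channel of Arabidopsis that releases potassium into the xylem of the root. CAX2 is an exchanger of the vacuolar membrane that moves calcium and other metal cations into the vacuole against protons. CSN4 belongs to the COP9 signalosome, which removes the small protein RUB (NEDD8 in animals) from cullins and so regulates ubiquitin ligases, among them the one that acts in the auxin response.

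The salt-treated libraries had 21576460 and 16943847 reads on the 62900 unigenes that passed a filter on low counts, and the control libraries 22074032 and 17618687. Replicate 2 was the smaller library of both groups, and its most abundant unigene took 7.40% of reads in salt-treated and 10.8% in control roots, against 3.27% and 3.21% in replicate 1. In bulk RNA of roots, fewer cells of a type and less RNA per cell cannot be told apart. The 1 marker of green tissue listed, a chlorophyll a-b binding protein (Unigene86979_All), had 18 and 17 reads in salt-treated roots, against 98 and 62 reads in control roots. Over 6 listed unigenes whose closest database sequence was in an alga or an oomycete, 58 and 97 reads were counted in salt-treated roots. There were 839 and 15 in control roots. Each of these 6 had reads in replicate 1 alone or in replicate 2 alone, so that 0 of them could separate the groups. Of all unigenes with reads, 9.7% had both salt-treated libraries above both control libraries and 7.48% below. The green tissue marker and these 6 came from the study's lists, chosen on this same contrast. The part of other tissues and organisms in the values of the 6 unigenes was not tested.

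SOS2 (Unigene66078_All, 2079 bp) had the most reads among the 6 unigenes, 64 in all. It was at 0.619 and 0.562 RPKM in salt-treated roots, against 0.171 and 0.216 RPKM in control roots, where RPKM is the read number per kilobase of unigene and per 1000000 counted reads of the library. Neither control library reached the level of a salt-treated one. The values rested on 28 and 20 reads in salt-treated roots, against 8 and 8 reads in control roots. Group means were 0.590 ± 0.040 RPKM in salt-treated and 0.194 ± 0.032 RPKM in control roots (SD, n = 2 each), a ratio of 3.05. The difference between group means was 0.396 RPKM, and the within-group SD was 0.036 RPKM. SOS2 was chosen on this contrast and the SD rests on 2 libraries per group, so this gap is not read as precision. Within replicate 1 the ratio of CPM (reads per 1000000 counted reads) was 3.61, with an exact 95% interval of 1.60 to 9.16, and within replicate 2 it was 2.60 (1.10 to 6.82). These intervals, and all others given for reads, cover counting error only. With reads added within a group, 48 in salt-treated and 16 in control roots, the ratio was 3.10 (1.73 to 5.86).

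MAPK8 (Unigene64991_All, 440 bp), the shortest of the 6 unigenes, had the highest level per length. It was at 1.57 and 1.33 RPKM in salt-treated roots, against 0.506 and 0.511 RPKM in control roots, and the groups did not overlap. The mean was 1.45 ± 0.169 RPKM in salt-treated and 0.508 ± 0.0031 RPKM in control roots (SD, n = 2 each), a ratio of 2.84. These levels came from 15 and 10 reads in salt-treated roots, against 5 and 4 reads in control roots. The ratio of CPM was 3.09 (1.07 to 10.9) within replicate 1 and 2.60 (0.750 to 11.4) within replicate 2, so that the interval of replicate 2 included equal levels. Over both replicates 25 reads stood against 9, a ratio of 2.87 (1.30 to 6.998).

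MMK1 (Unigene117440_All, 973 bp) was at 0.236 and 0.240 RPKM in salt-treated roots, against 0.0458 and 0.115 RPKM in control roots. The salt-treated libraries had nearly the same level, and the control libraries differed from each other by 1 read. The reads were 5 and 4 in salt-treated roots, against 1 and 2 reads in control roots. Means were 0.238 ± 0.0028 RPKM in salt-treated and 0.0806 ± 0.0492 RPKM in control roots (SD, n = 2 each), and their ratio of 2.95 was close to those of SOS2 and MAPK8. Its counting intervals were much wider. The ratio of CPM was 5.16 (0.577 to 244) within replicate 1, 2.08 (0.298 to 23.0) within replicate 2 and 3.10 (0.775 to 17.8) with the reads added, and all of these intervals included equal levels. The reads of MMK1 therefore did not show a difference beyond counting error.

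**Figure D1:**
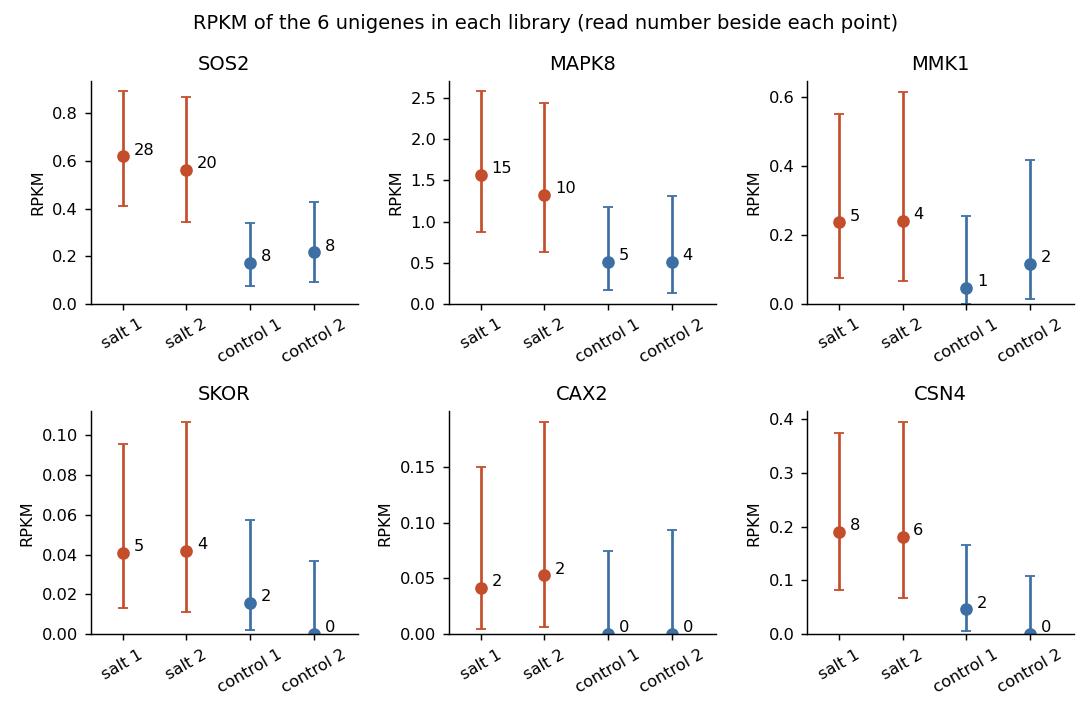
RPKM of each of the 6 unigenes (vertical axis, its own scale in each panel) in the 2 salt-treated and the 2 control libraries. Points are single libraries, bars are exact 95% Poisson intervals of the read number and the number beside a point is its reads. Both salt-treated points lie above both control points in every panel, with 28 and 20 against 8 and 8 reads for SOS2 at one end and 2 and 2 against 0 and 0 reads for CAX2 at the other.

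SKOR (Unigene107038_All, 5597 bp), the longest of the 6 unigenes, was at 0.0410 and 0.0417 RPKM in salt-treated roots, against 0.0159 and 0 RPKM in control roots. It had 5 and 4 reads in salt-treated roots, against 2 and 0 reads in control roots. Both salt-treated libraries were above both control libraries, but a count of 0 allows up to 3 reads. Mean levels were 0.0414 ± 0.0005 RPKM in salt-treated and 0.0080 ± 0.0112 RPKM in control roots (SD, n = 2 each). The ratio of CPM within replicate 1 was 2.58 (0.422 to 27.1). In replicate 2 all 4 reads came from the salt-treated library. The exact interval of that share, 39.8% to 100%, included the 49.0% of counted reads that this library held of its pair. Any split of 4 reads would have done so. With reads added, 9 against 2, the ratio was 4.66 (0.964 to 44.3).

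CAX2 (Unigene91704_All, 2217 bp) had the fewest reads. It was at 0.0414 and 0.0527 RPKM in salt-treated roots, against 0 and 0 RPKM in control roots, from 2 and 2 reads in salt-treated roots and none in control roots. Its mean in salt-treated roots was 0.0471 ± 0.0080 RPKM (SD, n = 2). The exact interval of the salt-treated share of its 4 reads, 39.8% to 100%, included the 49.1% that the salt-treated libraries held of all counted reads. With 4 reads no split could have excluded that share, so equal levels could not be tested. Exactly this pattern, 2 reads in each salt-treated and 0 in each control library, occurred in 268 unigenes, and its mirror image in 265 unigenes.

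CSN4 (Unigene29962_All, 1928 bp) showed the widest gap between the groups in proportion to its level among the 5 unigenes with reads in control roots. It was at 0.191 and 0.182 RPKM in salt-treated roots, against 0.0462 and 0 RPKM in control roots. The reads were 8 and 6 in salt-treated roots, against 2 and 0 reads in control roots, so the groups did not overlap. The mean was 0.186 ± 0.0063 RPKM in salt-treated and 0.0231 ± 0.0327 RPKM in control roots (SD, n = 2 each), a ratio of 8.06. Within replicate 1 the ratio of CPM was 4.12 (0.823 to 39.9). In replicate 2 all 6 reads were from the salt-treated library, a share with an exact interval of 54.1% to 100%. With reads added, 14 against 2, the ratio was 7.24 (1.66 to 65.7).

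**Figure D2:**
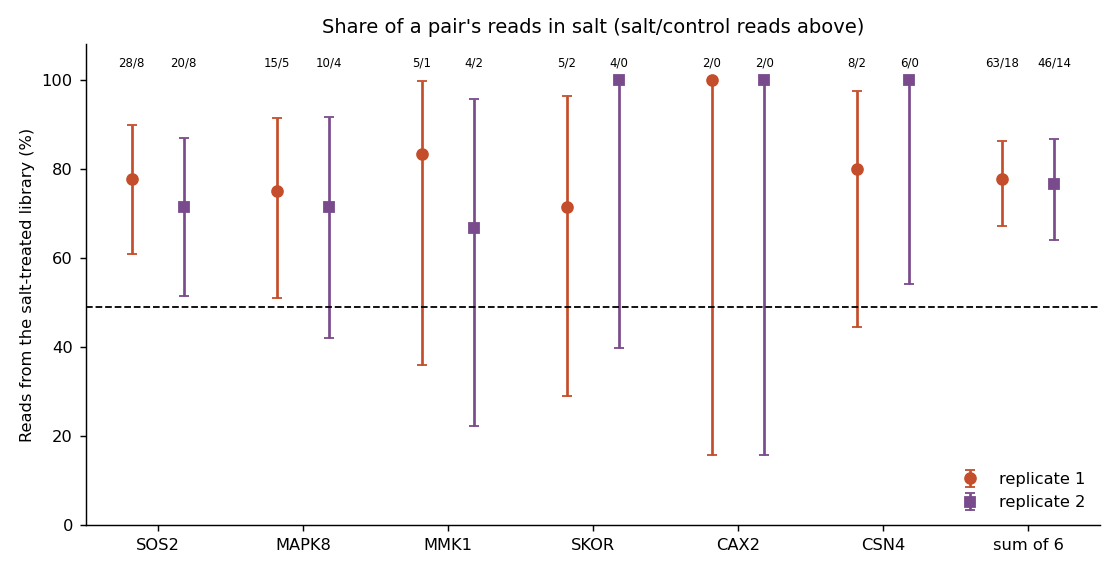
Percent of the reads of a replicate pair that came from the salt-treated library (vertical axis), for each of the 6 unigenes and their sum, with replicate 1 as circles and replicate 2 as squares. Bars are exact 95% binomial intervals and the dashed line is the salt-treated share of all counted reads of replicate 2, 49.0% (49.2% in replicate 1). The shares were 77.8% and 71.4% for SOS2 and 77.8% and 76.7% for the sum, and the bars are longest for CAX2, with 2 reads in each pair.

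All 6 unigenes had both salt-treated libraries above both control libraries. Among the 121929 unigenes with at least 1 read, 11830 (9.7%) did so, and 9122 (7.48%) showed the opposite order. Likewise 6 of the 6 were higher in salt-treated roots within both replicate numbers, as were 27540 (22.6%) of the unigenes with reads, while 20501 (16.8%) were lower within both. The choice of the 6 unigenes used this contrast, so nothing is read from these counts beyond the pattern itself.

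Summed over the 6 unigenes, 63 and 46 reads were counted in salt-treated roots, against 18 and 14 reads in control roots. The summed level was 2.89 and 2.69 CPM in salt-treated roots, against 0.802 and 0.786 CPM in control roots. The libraries of a group were closer to each other than to those of the other group. Means were 2.79 ± 0.147 CPM in salt-treated and 0.794 ± 0.011 CPM in control roots (SD, n = 2 each). The control sums rested on 18 and 14 reads and the 6 were chosen on this contrast, so this closeness is not read as precision. The ratio was 3.61 (2.11 to 6.48) within replicate 1 and 3.42 (1.85 to 6.73) within replicate 2, or 1.85 and 1.77 on the log2 scale. With 109 reads in salt-treated and 32 reads in control roots, the ratio over both replicates was 3.52 (2.36 to 5.40). On the RPKM scale the sum was 2.69 and 2.40 in salt-treated roots, against 0.786 and 0.842 in control roots.

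SOS2 supplied 44.0% of the summed reads in salt-treated and 50.0% in control roots, and MAPK8 22.9% in salt-treated and 28.1% in control roots. CSN4 gave 12.8% in salt-treated and 6.25% in control roots. The remaining members gave less than CSN4 in salt-treated roots, with CAX2 at 3.67% there. The 3 kinases together had 48 and 34 reads in salt-treated roots, against 14 and 14 reads in control roots, and the 2 transporters 7 and 6 reads in salt-treated roots, against 2 and 0 in control roots. Without SOS2 the sum was 1.61 and 1.52 CPM in salt-treated roots, against 0.445 and 0.337 CPM in control roots. Per length the order changed, and MAPK8 made up 56.7% of the summed RPKM in salt-treated and 62.5% in control roots.

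**Figure D3:**
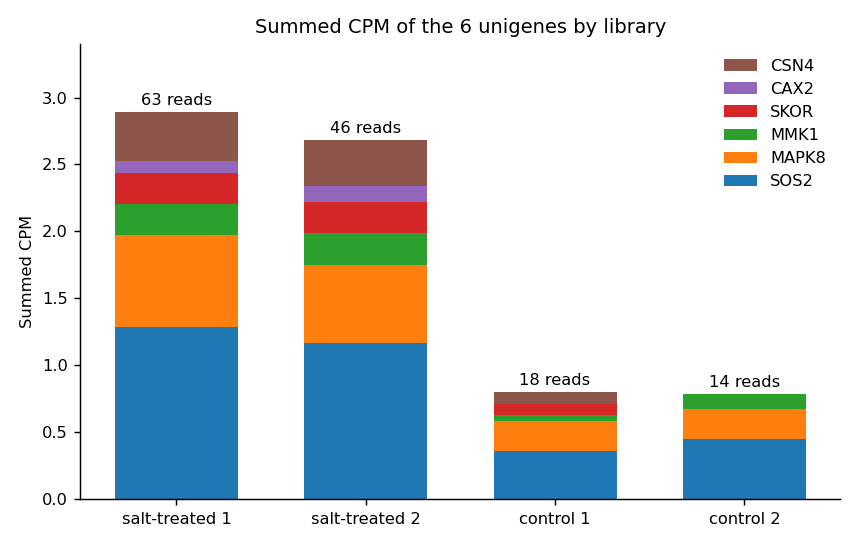
Summed CPM (vertical axis, reads per 1000000 counted reads) of the 6 unigenes in each library, stacked by unigene, with the summed read number above each bar. The salt-treated bars reach 2.89 and 2.69 CPM and the control bars 0.802 and 0.786 CPM, and SOS2 is the lowest and thickest layer in each.

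In the test across the table, edgeR called 0 of 62900 unigenes (0%) between salt-treated and control roots at an adjusted p of 0.05 or less. At an unadjusted p under 0.05 there were 129, of which 60 were higher in salt-treated roots, and DESeq2 called 2. SOS2 and MAPK8 were the 2 members that passed the filter on low counts, both through their reads in salt-treated roots, while SKOR, CAX2, MMK1 and CSN4 were not tested. The fitted log2 fold change was 1.55 (SE 0.71) for SOS2 and 1.44 (SE 0.97) for MAPK8. The study's own thresholds ask for an absolute log2 ratio of 2 or more, with p and adjusted p of 0.001 or less. Only the ratio is compared here. By the log2 ratio of group mean RPKM, CSN4 (3.01) and SKOR (2.38) were past 2, and SOS2 (1.61), MMK1 (1.56) and MAPK8 (1.51) were below it. CAX2 had no ratio without an added constant, because it was at 0 in both control libraries. For ARF25, which also had no reads in control roots, the study printed a control level of 0.001 RPKM and so obtained a ratio.

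On a common scale, the log2 ratio of group mean CPM with 0.1 CPM added, CSN4 was at 1.67, SOS2 at 1.40, SKOR at 1.20, MAPK8 at 1.19, CAX2 at 1.03 and MMK1 at 0.89. The addition of 0.1 CPM understates the ratio of members with few reads. Their median was 1.19, against 0.01 over all unigenes with reads, of which the middle 90% lay between -1.69 and 1.12. For the 62900 unigenes tested the median was 0.04.

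**Figure D4:**
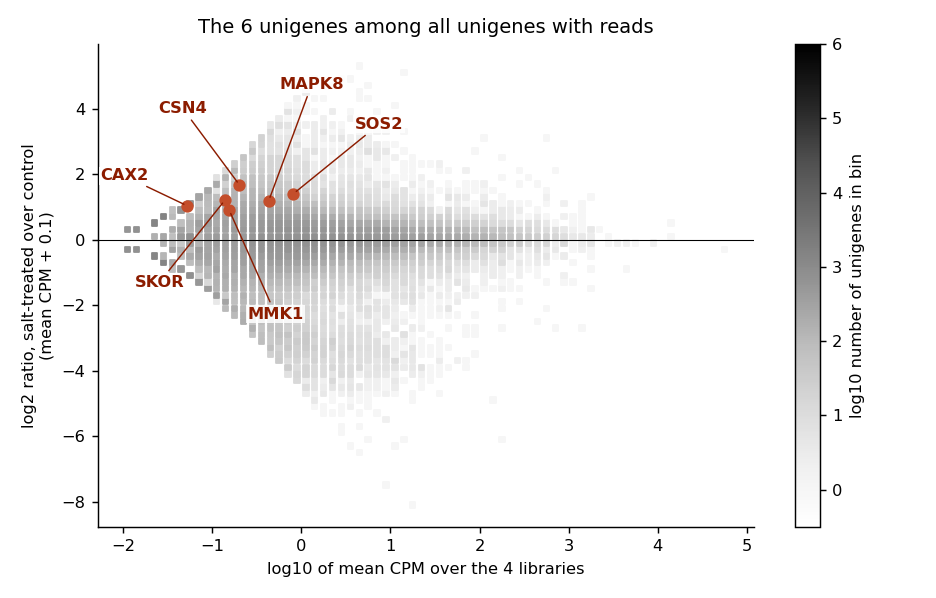
Log2 ratio of salt-treated over control roots from group mean CPM plus 0.1 (vertical axis) against log10 of mean CPM over the 4 libraries (horizontal axis) for unigenes with reads, in bins shaded by the log10 number of unigenes. The 6 unigenes (points) lie between 0.89 for MMK1 and 1.67 for CSN4, at mean CPM values below 1 (0 on the horizontal axis).

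The replicate number was not used to choose the 6 unigenes. It was a large source of difference in the table as a whole, since edgeR called 6682 of 62900 unigenes (10.6%) between replicate 2 and replicate 1 in a model with the condition, 3650 higher and 3032 lower in replicate 2. SOS2 and MAPK8 had passed the filter through having enough reads in both salt-treated libraries, so steadiness is not read from their values. The log2 difference of replicate 2 from replicate 1 was 0.13 for SOS2 (SE 0.63, edgeR adjusted p = 0.91) and -0.06 for MAPK8 (SE 0.81, edgeR adjusted p = 0.97). These standard errors are wide, and smaller differences between replicates cannot be told from 0. Among salt-treated libraries, the ratio of replicate 2 to replicate 1 in CPM was between 0.847 (MAPK8) and 1.27 (CAX2), and the intervals of all 6 unigenes included equal levels. In control libraries the intervals of all 5 unigenes with reads did so. With the 4 reads of CAX2 in salt-treated roots this outcome was fixed for any split. The same held in control roots for SKOR and CSN4 (2 reads each) and MMK1 (3 reads). Steadiness is therefore not read from these intervals either. For the sum, replicate 2 over replicate 1 was 0.928 (0.620 to 1.38) in salt-treated and 0.981 (0.451 to 2.09) in control roots.

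Read numbers in this table were more often even than odd. Unigenes with 2 reads outnumbered those with 1 read by 1.90 and 2.08 times in the salt-treated libraries, against 1.97 and 2.07 times in the control libraries, and 61.8% to 62.7% of all values from 1 to 30 reads were even. Of the 20 values above 0 among the 6 unigenes, 15 were even (75%). Both values of CAX2 in salt-treated roots were 2 reads. The sources used here do not state how the mates of a read pair were counted. If 2 reads are taken as 1 unit, the ratio over both replicates had an interval of 1.35 to 7.99 for SOS2 and 1.97 to 6.54 for the sum. SOS2 within replicate 2 would then have 10 units in salt-treated and 4 in control roots, the same numbers as the reads of MAPK8 there, for which the interval was 0.750 to 11.4. On the same footing the interval was 0.941 to 13.2 for MAPK8 and 0.931 to 326 for CSN4, so that for these unigenes it included equal levels. For SKOR and MMK1 it ran from 0.410 to 204. Within replicates the interval of the sum was 1.65 to 8.48 in replicate 1 and 1.42 to 9.43 in replicate 2.

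**Figure D5:**
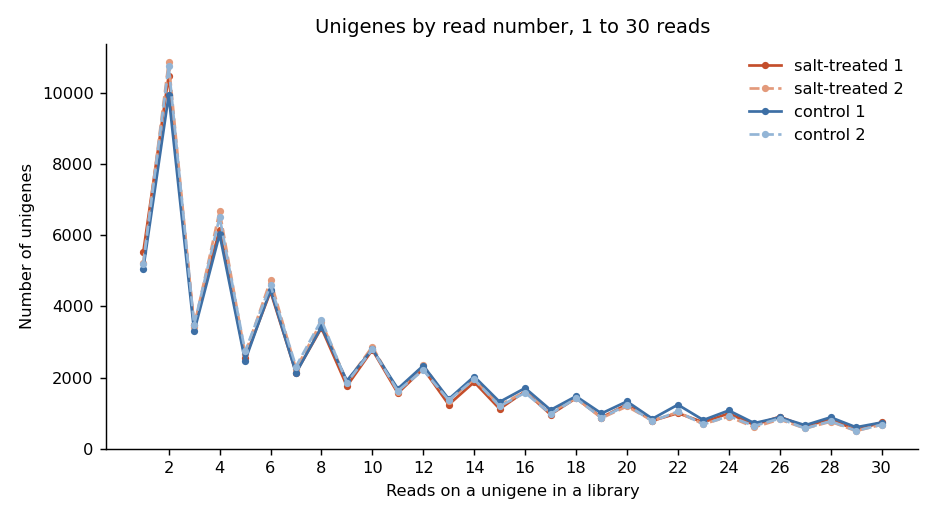
Number of unigenes (vertical axis) with a given number of reads in a library (horizontal axis, 1 to 30 reads), 1 line for each salt-treated and control library. The lines rise at even and dip at odd numbers in all 4 libraries, with 10482 unigenes at 2 reads and 5515 at 1 read in salt-treated replicate 1.

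Per length, the mean level over the 4 libraries ran in the order MAPK8 (0.977 RPKM), SOS2 (0.392 RPKM), MMK1 (0.159 RPKM), CSN4 (0.105 RPKM), SKOR (0.0247 RPKM) and CAX2 (0.0235 RPKM). In salt-treated roots only the neighbours SKOR and CAX2 overlapped, and there CAX2 had the higher mean (0.0471 RPKM, against 0.0414 RPKM for SKOR). In control roots MMK1 overlapped with CSN4, CSN4 with SKOR and SKOR with CAX2. MAPK8 stood at the percentile 50.5 of all unigenes with reads and SOS2 at 31.5, while SKOR and CAX2 stood at 3.39 and 3.18. In length the order was almost the opposite. SKOR was longer than 99.5% of unigenes with reads and MAPK8 longer than 36.6%, and the median length of the 6 was 2003.5 bp, against 686 bp for all unigenes with reads. MAPK8 thus had 77.3 reads per kilobase over the 4 libraries and CAX2 1.80 reads per kilobase. Of the 24 values of the 6 unigenes, 4 were 0, all in control roots.

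The study also listed 3 signaling unigenes as higher and 5 as lower in salt, with 16 to 1522 reads each over the 4 libraries. The list was chosen on these libraries, so its direction is not independent evidence. Of 3 listed as higher in salt, 1 was tested and 0 were called by edgeR, 2 had both salt-treated libraries above both control libraries, and the median log2 ratio of mean CPM plus 0.1 was 2.22. Of 5 listed as lower, 2 were tested and 0 were called, 2 had both salt-treated libraries below both control libraries, and the median was -2.33. A receptor-like protein kinase (Unigene74868_All) had the highest ratio, 2.47 on that scale, with 11 and 45 reads in salt-treated roots, against 4 and 4 reads in control roots. The kinase APK1A (Unigene154422_All, log2 ratio 1.91) had 42 and 66 reads in salt-treated roots, against 1 and 24 reads in control roots.

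Calmodulin (Unigene24897_All), the calcium sensor that acts beside the SOS3 type of sensors, had 27 and 0 reads in salt-treated roots, against 347 and 2 reads in control roots. Nearly all of its reads were in replicate 1. Its log2 ratio of -3.45 rested on replicate 1, since replicate 2 held 0 and 2 reads. The fitted log2 fold change of Unigene24897_All was -3.68 with all libraries and -3.72 with the replicate number in the model. It was 2.35 without control replicate 1, a fit that sets both salt-treated libraries against control replicate 2 alone. The lowest ratio in the list, -3.85, belonged to the gibberellin-regulated protein 6 (Unigene63319_All), with 6 and 87 reads in salt-treated roots, against 28 and 1401 reads in control roots. Most of its reads were in replicate 2, and it was lower in salt-treated roots within both replicate numbers. The fitted log2 fold change of Unigene63319_All was -3.92 with all libraries and -3.40 with the replicate number in the model. Without control replicate 2 it was 1.14, a fit that sets both salt-treated libraries against control replicate 1 alone.

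Among transporters, CAX2 was 1 of 5 listed as higher in salt. Of these 5, 3 were tested and 0 were called by edgeR, 3 had both salt-treated libraries above both control libraries, and the median log2 ratio was 1.19. Of 2 listed as lower, 1 was tested and 0 were called, 0 had both salt-treated libraries below both control libraries, and the median was -2.06. The pyrophosphate-energized proton pump of the vacuolar membrane (Unigene29379_All) builds the proton gradient that exchangers of the CAX type use. It had 29 and 30 reads in salt-treated roots, against 14 and 11 reads in control roots, a log2 ratio of 1.19, and its groups did not overlap. The lysine histidine transporter 1 (Unigene91442_All) had the highest ratio of the list, 2.00, with 8 and 50 reads in salt-treated roots, against 0 and 12 reads in control roots. It was higher in salt-treated roots within both replicate numbers. Its fitted log2 fold change was 2.28 with all libraries and 2.57 with the replicate number in the model. Without salt-treated replicate 2 it was 0.04, a fit that sets salt-treated replicate 1 alone against both control libraries. The monosaccharide-sensing protein 2 (Unigene138409_All) had the lowest, -2.10, with 8 and 6 reads in salt-treated roots, against 2 and 65 reads in control roots, so that within replicate 1 it had more reads in salt-treated roots.

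The network of the study was drawn around ARF25, an auxin response factor, and also held PIN6, an auxin transporter, and a bHLH transcription factor. ARF25 (Unigene60441_All, 1196 bp) had the same reads as CAX2, 2 and 2 in salt-treated roots and 0 and 0 in control roots. The level of the unigene at the centre of that network thus rested on 4 reads in these libraries. The study also measured some genes of its networks by quantitative PCR in roots of A. officinalis and of Arabidopsis. The legend of that figure names CSN4, SKOR, MAPK8 and PIN6 among them. These measurements are not part of the data used here. PIN6 (Unigene39089_All) had 25 and 17 reads in salt-treated roots, against 9 and 1 reads in control roots, a log2 ratio of 1.83 and the highest of these 3. The bHLH unigene (Unigene120810_All) had 6 and 4 reads in salt-treated roots, against 2 and 0 in control roots. All 3 had both salt-treated libraries above both control libraries, 1 was tested and 0 were called by edgeR, and their median log2 ratio was 1.29.

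Likeness of pattern was measured over the 4 libraries as the Euclidean distance between centred log2(RPKM + 0.1) values, against the 17 other unigenes of these lists. The proton pump of the vacuolar membrane was nearest to SOS2 (distance 0.389) and to MAPK8 (0.459). The organic cation/carnitine transporter 7 (Unigene40195_All), with 18 and 14 reads in salt-treated roots, against 8 and 8 reads in control roots, was nearest to CAX2 (0.179), SKOR (0.376) and MMK1 (0.394). The bHLH unigene was nearest to CSN4 (0.281). ARF25, with exactly the reads of CAX2 in all 4 libraries, was second to it at 0.349, because its shorter unigene gives higher RPKM values and 0.1 RPKM was added to both. This addition flattens the patterns of SKOR and CAX2, whose levels lie below it, and 4 libraries leave many patterns alike.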

How the data were processed

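Root mRNA of salt-treated and control plants, 2 libraries each, was sequenced on an Illumina instrument. According to the methods and the submitters' processing notes, the authors assembled reads with Trinity (release-20121005) and obtained RPKM with SOAP 2.21. The deposited table gives raw read counts, RPKM and unigene length as the authors made them. RPKM equalled reads per kilobase and per 1000000 counted reads in every value. No source used here states how reads with multiple hits were counted.

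The test on reads was the quasi-likelihood test of edgeR 4.0.16 under R 4.3.3 (filterByExpr, minimum count 10 and minimum total 15, TMM, condition as the only term) with Benjamini-Hochberg adjustment over 62900 unigenes. The replicate number was tested with condition in the model. DESeq2 1.42.0 was an alternative. Pair ratios carry exact 95% binomial intervals. Intervals and sums used scipy 1.17.1 and pandas 2.3.3 in Python 3.11.15. The edgeR script was run on simulated data as a check of the code. Recovery of set differences was required there only at a smaller spread between libraries than in these data. The biological coefficient of variation, the spread of libraries beyond counting error, was 0.67 here. Passing this check therefore does not show which differences could be found in these libraries. Exact permutation of 2 against 2 libraries cannot go below p = 0.333.

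Members and lists were chosen with earlier results of these data known. All 6 members are named. Of the other listed signaling, transporter and network unigenes, those with the highest and the lowest ratio in a list, those of a function class close to a member, ARF25 and PIN6 are named, together with the nearest unigene in pattern. The chlorophyll a-b binding unigene and the bHLH unigene are named as a tissue marker and as the nearest to CSN4.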

Additional observations from a re-analysis of the deposited data

How the results depend on the processing

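The count of 0 unigenes called between salt-treated and control roots became 2 with DESeq2, and was 0 to 2 when each library was left out in turn, with 2 only without control replicate 2. It stayed 0 with a replicate block, while the number at an unadjusted p under 0.05 was 2158 (586 higher in salt-treated roots) with the block, against 129 (60 higher) without it. The correlation of the deviations of same-numbered libraries from their group means was 0.66 over 62900 unigenes, but with 2 pairs the numbers are not known to pair the samples. The count for the replicate number, 6682, was 12424 without a filter on low counts and between 4747 and that value over 5 alternatives. Leaving out a library in this test could not be fitted, since no residual degrees of freedom remain. The log2 fold change ranged from 1.40 to 1.77 for SOS2 and from 1.35 to 1.52 for MAPK8 over 9 alternatives each. The log2 ratio of the summed CPM ranged from 1.38 to 1.93 within replicate 1 and from 1.31 to 2.17 within replicate 2 over 10 alternatives each, which include each member left out in turn. With TMM library sizes both counts of members stayed at 6 of 6. Intervals with 2 reads taken as 1 unit were added after the excess of even read numbers was seen. The depth limits SKOR, CAX2, MMK1 and CSN4, with 4 to 16 reads each in all.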
